A study of Mus musculus with 8 samples.

Results

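The set described here is the cell cycle and mitosis genes, 42 genes that make, check or carry out DNA replication and cell division. They were chosen by name, and all 42 had a row among the 25378 genes of the expression table. RNA of lesional back skin was sequenced from 8 female wild-type C57BL/6 mice aged 6 weeks, 4 in each of 2 groups. All 8 received 5 nmol of MC903 on the back on 10 consecutive days. MC903, also called calcipotriol, mimics vitamin D and gives mouse skin an inflammation resembling atopic dermatitis. In the propionic acid group, propionic acid, one of the short-chain fatty acids, was applied at 1 mM, 1 h after MC903. In the control group a control application, not described further, took its place. Skin was taken on day 11, and mice without MC903 were not part of the comparison, which therefore asks how the lesions of the 2 treatments differ. The labels call the samples biological replicates, taken here as 4 separate mice per group.

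A cell that divides passes from G1 into S phase, when DNA is copied, and then through G2 into mitosis. Cyclins switch on the cyclin-dependent kinases (CDKs) that drive each step. E2F factors, held back by the RB family until G1 CDKs act, turn on the replication genes. Later, B-MYB and FOXM1, together with the MuvB core, turn on the genes of mitosis. In skin the dividing cells are mainly basal keratinocytes and the matrix cells of growing hair follicles, along with activated immune, endothelial and stromal cells. MC903 thickens the epidermis. In whole skin, fewer dividing cells and less RNA per dividing cell cannot be told apart.

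The libraries held between 39034193 and 40194111 reads, as recovered from the steps in the FPKM values (fragments per kilobase, adjusted for library size). The limits of that recovery are given with the processing. Of the 42 genes, 41 passed the filter of 1 FPKM or more in at least 4 libraries, as did 12598 genes in all. Cdc6, which loads the MCM helicase onto DNA, did not. Its levels were 0.892, 1.07, 0.927 and 0.892 FPKM in propionic acid skin, against 1.20, 0.842, 0.905 and 0.769 FPKM in control skin. A member had between 122 and 6573 reads in a library, with a median of 1018. Counting alone gives a median coefficient of variation of 3.08% at that depth, whereas the observed coefficient between mice of a group had a median of 22.2%. The tissue label fits its markers: the basal keratin Krt14 stood at 3405 to 4741 FPKM in propionic acid skin and 3175 to 5619 FPKM in control skin.

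The promoters of these genes carry elements by which their transcription is known to be timed. The cell cycle homology region (CHR), which binds the MuvB core, marks genes of G2 and mitosis. The CCAAT box binds NF-Y, and the E2F element marks genes of the G1/S step. RefSeq promoter windows of 300 bases (250 before and 50 after the start, GRCm38.p6) were matched for 33 of the 42 members, of which 2 have 2 windows. The CHR (TTTGAA or TTCGAA, both strands) was found in 16 of 20 members of the G2/M class and 2 of 13 of the G1/S class. Of all 32851 windows, 19.2% hold it. The variant TTTAAA was in 7 of 20 and 3 of 13, against 13.2% of all windows. CCAAT was in 18 of 20 and 9 of 13, against 37.4%. The E2F element (TTTGGCGC, TTTCCCGC, TTTGCCGC or TTTCGCGC, both strands) was in 1 of 20 and 6 of 13, against 2.26%. Matches that overlap were each counted. Below are 4 windows on the transcribed strand, with every match in capitals. Ccnb2 is shown because it has the smallest p of the set, Mki67 for the widest spread between mice, Mcm5 for its E2F elements, and Pcna as the most abundant and steadiest member.
Ccnb2 (chr9:70421505-70421804, minus strand): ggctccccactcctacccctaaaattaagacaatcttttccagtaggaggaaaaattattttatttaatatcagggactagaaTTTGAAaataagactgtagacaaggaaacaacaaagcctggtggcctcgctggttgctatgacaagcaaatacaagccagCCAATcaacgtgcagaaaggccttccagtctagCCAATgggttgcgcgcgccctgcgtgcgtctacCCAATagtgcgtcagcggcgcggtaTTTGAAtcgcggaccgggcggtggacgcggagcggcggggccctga
Mki67 (chr7:135716330-135716629, minus strand): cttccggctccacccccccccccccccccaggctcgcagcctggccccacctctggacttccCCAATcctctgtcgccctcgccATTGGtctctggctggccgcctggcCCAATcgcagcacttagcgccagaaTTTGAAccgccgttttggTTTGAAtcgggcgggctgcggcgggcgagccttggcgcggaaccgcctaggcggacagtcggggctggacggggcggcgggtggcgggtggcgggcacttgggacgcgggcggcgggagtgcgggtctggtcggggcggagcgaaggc
Mcm5 (chr8:75109259-75109558, plus strand): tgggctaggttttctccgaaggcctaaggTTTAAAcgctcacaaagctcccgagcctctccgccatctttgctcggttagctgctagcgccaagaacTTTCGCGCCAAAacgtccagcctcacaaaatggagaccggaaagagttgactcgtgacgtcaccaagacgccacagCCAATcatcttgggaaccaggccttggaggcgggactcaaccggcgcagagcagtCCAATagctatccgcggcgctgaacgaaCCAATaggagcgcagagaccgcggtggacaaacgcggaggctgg
Pcna (chr2:132253131-132253430, minus strand): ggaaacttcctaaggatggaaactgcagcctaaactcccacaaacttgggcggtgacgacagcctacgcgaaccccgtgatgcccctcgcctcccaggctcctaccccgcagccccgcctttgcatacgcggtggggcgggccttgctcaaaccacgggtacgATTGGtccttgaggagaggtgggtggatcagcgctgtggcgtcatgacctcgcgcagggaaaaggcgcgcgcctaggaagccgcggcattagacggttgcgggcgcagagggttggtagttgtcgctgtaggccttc
The Ccnb2 and Mki67 windows each hold 2 CHR and 3 CCAAT matches. The Mcm5 window holds 2 E2F matches that overlap each other, 3 CCAAT boxes and 1 TTTAAA, and the Pcna window 1 CCAAT box and no match to the others. A match is a description of these letters, not of binding in these mice.

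No member differed between propionic acid and control skin after adjustment over all genes tested. In limma, with Benjamini-Hochberg adjustment over all 12598 genes, 0 of 41 members passed an adjusted p of 0.05, and the adjusted p ran from 0.770 to 0.998. The background was 0% of all genes tested (0 of 12598), so the members are no exception. At an unadjusted p under 0.05 there was 1 member (2.44%), Ccnb2, which was lower with propionic acid, where 6.29% of all genes tested had such a p, 2.21% on the lower side and 4.07% on the higher. Ccnb2 did not have such a p with skeletal muscle markers as a covariate or with the replicate number as a block. Nor did it without propionic acid replicate 1, 2 or 3, control replicate 1, 2 or 3, or control replicates 1 and 3 together. Foxm1 and Kif23 had such a p without propionic acid replicate 3, and Mcm3 without control replicate 2. Cdc25c had one without propionic acid replicate 4, and E2f1 without control replicate 4. Kif23 also had one with median-of-ratios scaling and with a correction for gene length. All of these were lower with propionic acid. For none of the 41 did the 4 propionic acid values and the 4 control values lie apart, which was the case for 3.16% of all genes tested. By direction alone, 32 of 41 members (78.0%) were lower by mean log2 value in propionic acid skin and 9 were higher, against 48.3% lower among all genes tested. The median log2 fold change of the members was -0.14, and that of all genes tested 0.01. These members move together between mice, as described further on, so their directions are not 41 separate observations.

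That median rests on a few mice. It was -0.01 without propionic acid replicate 1, with 22 members lower and 19 higher, and -0.04 without control replicate 1, with 27 lower. It was -0.23 without control replicate 2, with 40 lower. Without control replicates 1 and 3 together, which an earlier look at these data set apart from the other controls, the median was 0.05, with 13 members lower and 28 higher. For 40 of the 41 members the 95% confidence interval around the fold change lay within -1 to 1 on the log2(FPKM + 1) scale. The lowest bound was -1.08 for Mki67. Differences of a size inside these intervals remain possible. The added 1 understates changes of low genes, so for these larger ones do too. With 0.1 added instead, the log2 fold change of Foxm1 was -0.46 (SE, standard error, 0.34), compared with -0.33 (SE 0.26).

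**Figure D1:**
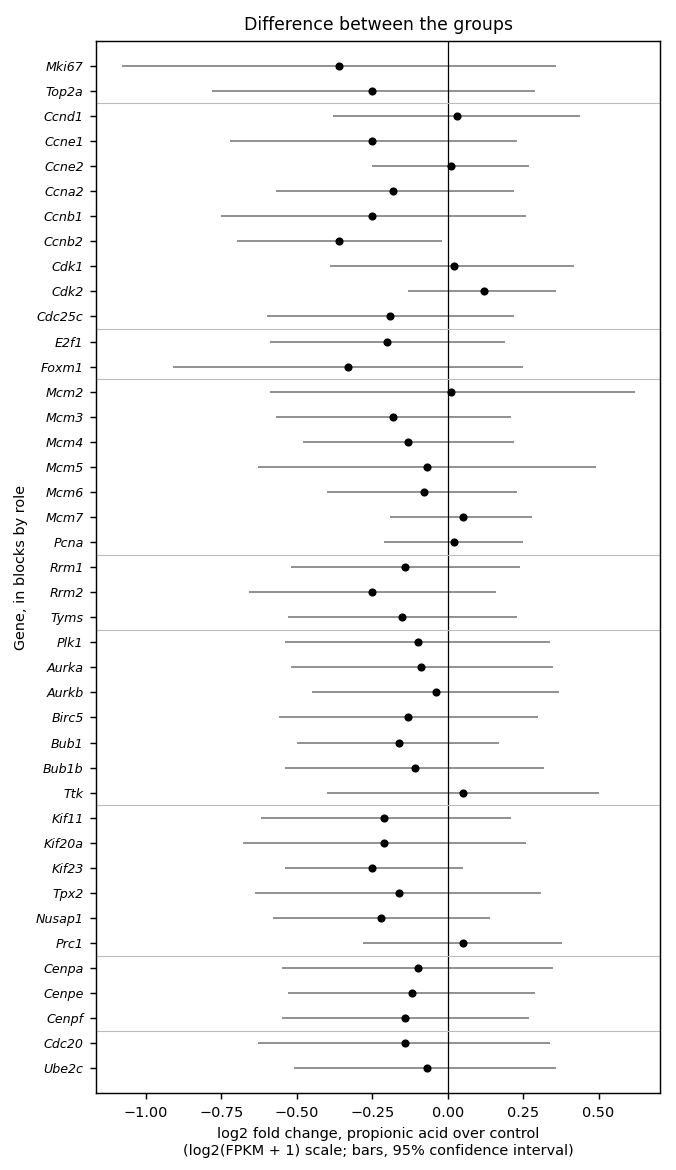
The log2 fold change of each of the 41 tested members (horizontal axis, propionic acid over control, on the log2(FPKM + 1) scale) with its 95% confidence interval, grouped by role down the page. Most points lie left of 0, and every interval but that of Ccnb2 (-0.70 to -0.02) includes 0.

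Mki67 and Top2a are the usual markers of dividing cells. Mki67 (chromosome 7, 135689784 to 135716361, GENCODE release M21 on GRCm38) encodes Ki-67, a protein that coats mitotic chromosomes. It had 4.24, 10.5, 13.3 and 7.54 FPKM in propionic acid skin, against 16.0, 7.09, 9.70 and 12.6 FPKM in control skin. The groups overlapped broadly, since the lowest value belonged to propionic acid replicate 1 and the next lowest to control replicate 2. Its log2 fold change was -0.36 with a standard error (SE) of 0.32 (limma adjusted p = 0.886). That value was -0.09 without propionic acid replicate 1, -0.57 without propionic acid replicate 3 and -0.03 with skeletal muscle markers as a covariate. Those markers themselves differed between the groups, as described further on. Top2a, the topoisomerase that untangles sister chromatids, had 9.29, 15.7, 18.6 and 15.9 FPKM in propionic acid skin, against 22.8, 12.1, 20.5 and 16.0 FPKM in control skin. The same pair of mice was lowest, and its log2 fold change was -0.25 (SE 0.24, limma adjusted p = 0.886).

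Among cyclins, those that serve mitosis (Ccna2, Ccnb1 and Ccnb2) had lower means with propionic acid, as did Ccne1 of G1, while Ccnd1 and Ccne2 were close to equal. Ccnb2 (chromosome 9, 70407692 to 70421547), a B-type cyclin that activates CDK1, had 10.2, 13.4, 13.3 and 16.4 FPKM in propionic acid skin, against 18.3, 16.9, 19.7 and 14.3 FPKM in control skin. Of the propionic acid mice, 3 lay below every control, and the fourth lay above control replicate 4. The log2 fold change was -0.36 (SE 0.15), with an unadjusted p of 0.0383 and a limma adjusted p of 0.770. Ccnb1, its close relative, had 7.41, 12.5, 14.8 and 14.2 FPKM in propionic acid skin, against 18.4, 10.5, 15.7 and 13.7 FPKM in control skin. Among the propionic acid mice, replicate 1 alone stood below the control range for Ccnb1, and the log2 fold change was -0.25 (SE 0.23, limma adjusted p = 0.886). Ccnd1, the cyclin D that growth signals induce in G1, had 10.9, 13.6, 12.7 and 9.39 FPKM in propionic acid skin, against 16.3, 9.12, 10.9 and 9.96 FPKM in control skin. Its log2 fold change was 0.03 (95% interval -0.38 to 0.44).

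Cyclin A2 (Ccna2), which serves S phase and early mitosis, averaged 11.2 ± 2.54 FPKM in propionic acid skin and 12.7 ± 2.05 FPKM in control skin (SD, n = 4 each). The E cyclins start S phase with CDK2. Ccne1 averaged 3.09 ± 0.689 FPKM with propionic acid and 3.94 ± 1.34 FPKM in control (SD, n = 4 each). Ccne2 averaged 2.74 ± 0.261 FPKM with propionic acid and 2.71 ± 0.396 FPKM in control. The kinases themselves had slightly higher means, with log2 fold changes of 0.02 for Cdk1 and 0.12 for Cdk2. Cdc25c, the phosphatase that activates CDK1, was spread widely with propionic acid, from 1.44 to 3.70 FPKM, and narrowly in control, from 2.57 to 2.97 FPKM. In this role, 9 genes with Cdc25c included, 5 were lower by mean log2 value and 4 higher, and none passed the test over all genes.

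Both transcription factors of the set had lower means. E2f1, which drives genes of the G1/S step, had 2.72, 3.25, 3.61 and 3.19 FPKM in propionic acid skin, against 5.37, 3.77, 3.99 and 2.50 FPKM in control skin. Control mice held both the highest value and the lowest. Foxm1 (chromosome 6, 128362967 to 128376146), which drives genes of mitosis, had 1.37, 3.20, 4.39 and 1.87 FPKM in propionic acid skin, against 4.58, 2.49, 3.67 and 3.22 FPKM in control skin. After Mki67, its ratio of highest to lowest mouse was the widest of the set, at 3.35. The log2 fold changes were -0.20 (SE 0.18) for E2f1 and -0.33 (SE 0.26) for Foxm1, with limma adjusted p of 0.883 and 0.874. With each mouse left out in turn they ran from -0.35 to -0.06 for E2f1 and from -0.53 to -0.14 for Foxm1, and Foxm1 stood at -0.06 with the muscle covariate.

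Of the roles described here, replication genes had the median log2 fold change nearest to 0, at -0.07. Mcm2 to Mcm7 encode the ring-shaped helicase that opens DNA, and their log2 fold changes ran from -0.18 (Mcm3) to 0.05 (Mcm7). Mcm3 had 8.71, 11.0, 11.3 and 11.0 FPKM in propionic acid skin, against 15.3, 8.49, 14.1 and 11.2 FPKM in control skin. The controls were the more scattered group, with values both above and below all propionic acid mice, and the log2 fold change was -0.18 (SE 0.17). Mcm2 and Mcm5 varied most among the helicase genes, with the highest mouse 2.55 and 2.16 times the lowest, and Mcm7 least, at 1.27. Pcna (chromosome 2, 132249162 to 132253314), the clamp that holds DNA polymerase on its template, had the highest FPKM of the set. It had 81.1, 78.1, 77.4 and 92.4 FPKM in propionic acid skin, against 84.1, 73.5, 82.5 and 83.9 FPKM in control skin. The highest mouse was 1.26 times the lowest, the narrowest span of all members, and the 95% interval of its log2 fold change was -0.21 to 0.25.

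The genes of nucleotide synthesis had lower means, within the spread of the controls. Rrm1 and Rrm2 encode the large and the small subunit of ribonucleotide reductase, which makes deoxynucleotides. Rrm1 had 13.5, 16.1, 17.3 and 17.1 FPKM in propionic acid skin, against 21.5, 12.6, 21.1 and 17.0 FPKM in control skin. Rrm2 had 11.1, 14.8, 14.5 and 16.0 FPKM in propionic acid skin, against 21.5, 13.4, 20.3 and 13.6 FPKM in control skin. In both genes control replicates 1 and 3 were highest. The other controls lay among the propionic acid mice, except that control replicate 2 was lowest of all for Rrm1. The log2 fold changes were -0.14 (SE 0.17) for Rrm1 and -0.25 (SE 0.18) for Rrm2, with limma adjusted p of 0.903 and 0.860. Tyms, thymidylate synthase, averaged 3.66 ± 0.731 FPKM with propionic acid and 4.17 ± 0.893 FPKM in control (SD, n = 4 each).

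Of the 7 mitotic kinases and checkpoint genes, 6 had a lower mean and 1, Ttk, a higher one. Plk1, a kinase that acts from the entry into mitosis to its end, had 4.55, 6.67, 8.66 and 7.42 FPKM in propionic acid skin, against 9.17, 6.74, 8.04 and 5.42 FPKM in control skin. Bub1, a kinase of the spindle checkpoint, had 1.5, 1.82, 2.30 and 1.79 FPKM in propionic acid skin, against 3.0, 1.61, 2.14 and 2.13 FPKM in control skin. For both, propionic acid replicate 1 was the lowest mouse and control replicate 1 the highest. The log2 fold changes were -0.10 (SE 0.20) and -0.16 (SE 0.15), with limma adjusted p of 0.943 and 0.886. The Aurora kinases Aurka and Aurkb, the survivin gene Birc5, and Bub1b and Ttk of the checkpoint had log2 fold changes from -0.13 (Birc5) to 0.05 (Ttk).

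Spindle genes included the member with the next smallest p after Ccnb2. Kif23 (chromosome 9, 61915905 to 61946774), a motor protein of the midzone where cells split, had 3.09, 3.84, 4.79 and 4.57 FPKM in propionic acid skin, against 5.35, 4.71, 4.63 and 5.21 FPKM in control skin. The controls lay close together, and 3 of the 4 propionic acid mice were below all of them. Its log2 fold change was -0.25 (SE 0.13), with an unadjusted p of 0.0923 and a limma adjusted p of 0.828. Prc1, which bundles the midzone microtubules, had 8.32, 13.1, 9.98 and 10.9 FPKM in propionic acid skin, against 11.8, 8.50, 10.1 and 10.0 FPKM in control skin. Here the highest and the lowest mouse both had propionic acid, and the log2 fold change was 0.05 (SE 0.15). The motors Kif11 and Kif20a and the spindle proteins Tpx2 and Nusap1 had log2 fold changes from -0.22 (Nusap1) to -0.16 (Tpx2).

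The 3 kinetochore genes, which tie chromosomes to the spindle, had lower means of small size. Cenpa, the histone variant that marks centromeres, had 11.9, 16.4, 19.7 and 25.6 FPKM in propionic acid skin, against 19.7, 19.3, 21.4 and 16.4 FPKM in control skin. Cenpf had 0.756, 1.56, 1.71 and 1.34 FPKM in propionic acid skin, against 2.15, 1.26, 1.06 and 1.88 FPKM in control skin. Propionic acid replicate 1 was lowest for both, but the highest mouse was propionic acid replicate 4 for Cenpa and control replicate 1 for Cenpf. The log2 fold changes were -0.10 (SE 0.20) for Cenpa and -0.14 (SE 0.18) for Cenpf. Cenpe, a kinetochore motor, averaged 1.97 ± 0.556 FPKM with propionic acid and 2.23 ± 0.636 FPKM in control (SD, n = 4 each).

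Cdc20 and Ube2c work with the anaphase-promoting complex, the ubiquitin ligase that ends mitosis. Cdc20 had 9.84, 12.8, 16.5 and 20 FPKM in propionic acid skin, against 20.3, 12.9, 17.9 and 13.7 FPKM in control skin. Ube2c had 23.6, 29.3, 28.8 and 44.7 FPKM in propionic acid skin, against 36.5, 29.7, 37.8 and 27.0 FPKM in control skin. Within the propionic acid group, replicate 1 was lowest and replicate 4 highest for both. The log2 fold changes were -0.14 (SE 0.22) for Cdc20 and -0.07 (SE 0.19) for Ube2c, with limma adjusted p of 0.923 and 0.951. Whether reads were assigned by strand is not given in the sources used here, and Ube2c shares 592 exon bases with Tnnc2, the troponin C of fast muscle on the other strand. Tnnc2 had 806, 355, 441 and 968 FPKM in propionic acid skin, against 353, 591, 312 and 353 FPKM in control skin. The mouse highest in Tnnc2 was also highest in Ube2c, while the next highest in Tnnc2 was lowest in Ube2c. The part of Tnnc2 reads in the Ube2c values was not tested.

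**Figure D2:**
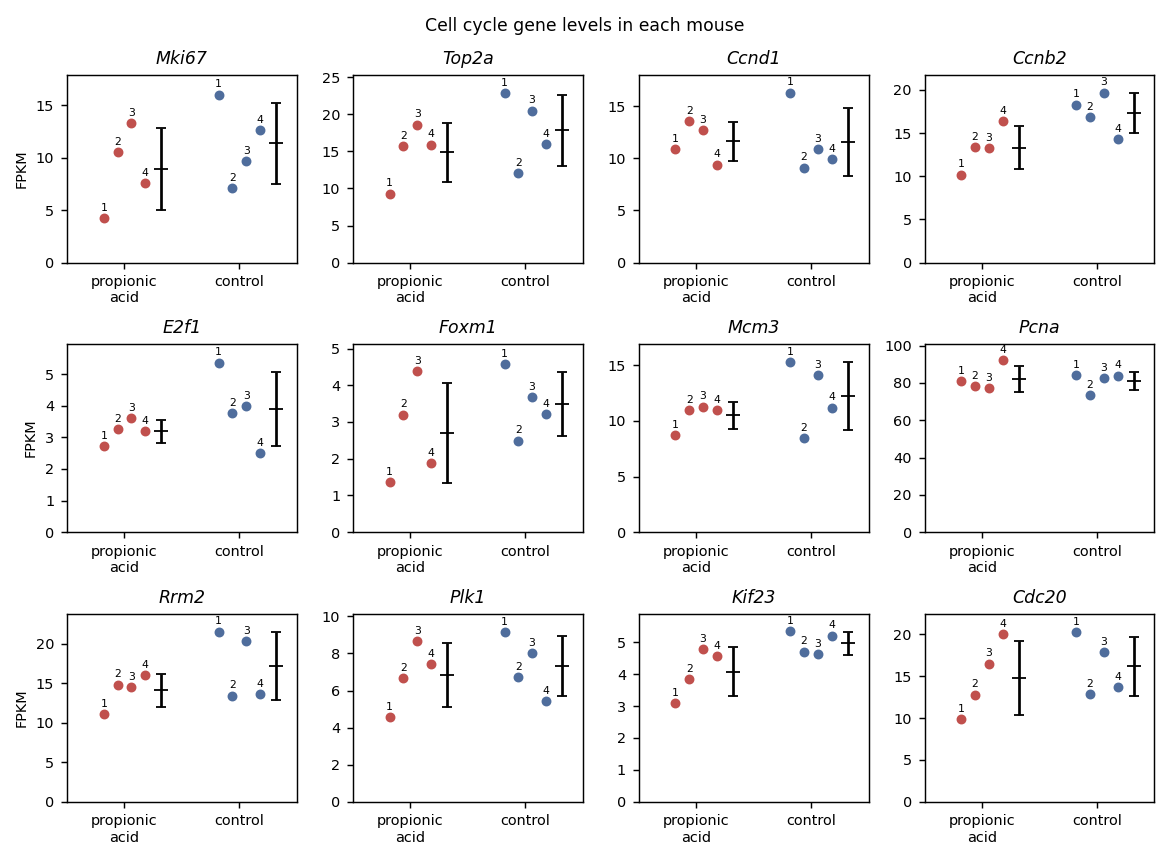
FPKM (vertical axis, from 0) of 12 members in each mouse, propionic acid left of control, with the replicate number above each point and the mean (black dash) ± SD (error bar) beside the points. The groups overlap in all 12 panels, and propionic acid replicate 1 is the lowest mouse in 8 of them.

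Differences between mice of the same group were larger than the difference between the groups, and most members shared them. Propionic acid replicate 1 was the lowest of the 8 mice for 30 of the 42 members, and control replicate 2 for 9. Control replicate 1 was the highest for 29, and propionic acid replicate 4 for 7. The mean log2(FPKM + 1) of the 41 tested members was 2.71, 3.16, 3.24 and 3.22 in propionic acid skin, against 3.48, 2.96, 3.30 and 3.11 in control skin. The lowest mouse thus had propionic acid and the highest was a control, with the other 6 mixed in between. The groups averaged 3.08 ± 0.25 with propionic acid and 3.21 ± 0.23 in control (SD, n = 4 each). The mean over all tested genes moved far less, at 3.43, 3.47, 3.54 and 3.46 in propionic acid skin, against 3.51, 3.43, 3.43 and 3.48 in control skin.

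**Figure D3:**
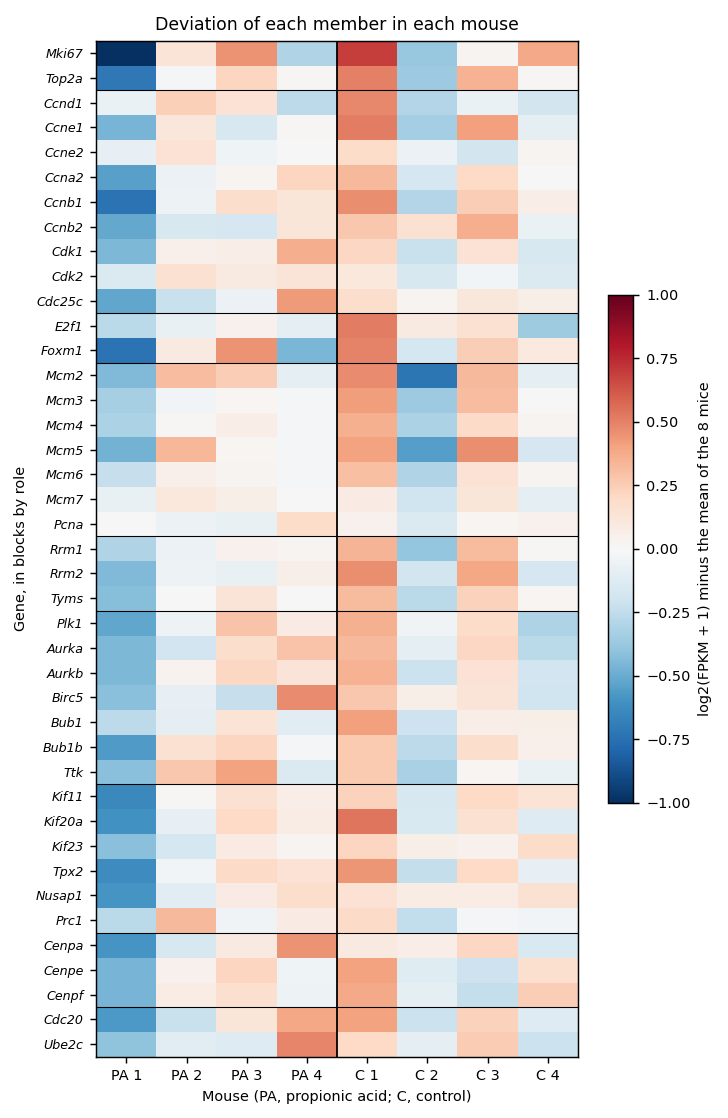
Log2(FPKM + 1) of each tested member (rows, grouped by role) minus its mean over the 8 mice, for propionic acid mice on the left and controls on the right, with colours limited to -1 and 1. The column of propionic acid replicate 1 is blue (below the mean) for all 41 and that of control replicate 1 red (above the mean) for all 41.

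This co-variation was measured after centring each group on its own mean, so that treatment does not enter. Over the 820 pairs of members, the median Pearson correlation across the 8 mice was 0.72, with quartiles of 0.52 and 0.85, and 8 pairs were below 0. Over all pairs of tested genes the median was 0.04, with quartiles of -0.35 and 0.42. All these pairs share the same 8 libraries and are given as a description. The 15 tested members of the G1/S class had a median of 0.82 among themselves and the 26 of the G2/M class 0.76. Without propionic acid replicate 1 and control replicate 1, the lowest and the highest mouse, the median of the members was 0.40 and that of all pairs 0.03. Part of the co-variation therefore rests on those mice.

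**Figure D4:**
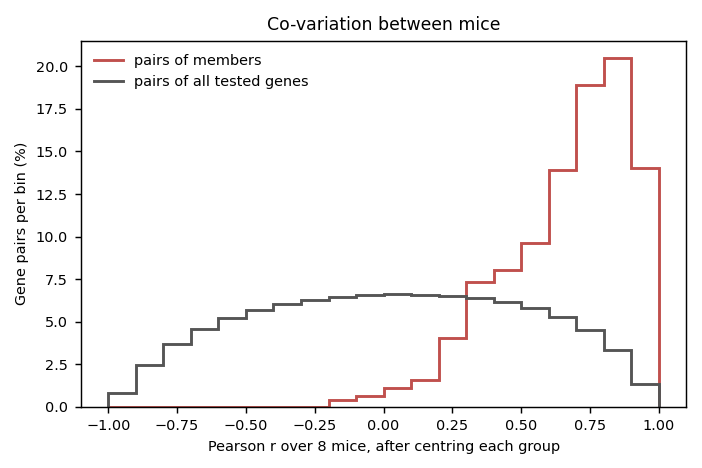
Share of gene pairs (vertical axis, percent per bin of 0.1) by their Pearson correlation across the 8 mice after centring each group, for pairs of members and for pairs of all tested genes. Member pairs gather at the high end, around their median of 0.72, while all pairs centre near 0.04.

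Members differed in how closely they followed the common pattern. The correlation with the member mean was above 0.8 for 26 of the 41, and was highest for Ccnb1 and Tpx2, at 0.99 each. It was lowest for Pcna (0.38), Ccne2 (0.42) and Ccnd1 (0.59). Each member is part of that mean, which raises these values a little. The within-group SD of log2(FPKM + 1) had a median of 0.28 for members and 0.21 for all tested genes, and ran from 0.11 for Pcna to 0.55 for Mki67.

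The balance between the classes was not the same in each mouse. Genes of the G2/M class averaged 2.42, 2.93, 3.09 and 3.07 in propionic acid skin, against 3.29, 2.82, 3.09 and 2.94 in control skin, on the log2(FPKM + 1) scale. Those of the G1/S class averaged 3.21, 3.56, 3.51 and 3.47 in propionic acid skin, against 3.81, 3.20, 3.66 and 3.40 in control skin. Propionic acid replicate 1 was therefore further below the other mice in its G2/M genes than in its G1/S genes, while control replicate 2 was level with it in G1/S genes.

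Libraries also differed by gene length, and its part in the members' values was not tested. The Spearman correlation, across tested genes, between gene length and a gene's deviation from its 8-mouse mean was -0.43, 0.20, 0.40 and -0.53 in propionic acid libraries, against 0.27, -0.35, 0.18 and 0.37 in control libraries. Longer genes thus read lower, relative to shorter ones, in propionic acid replicates 1 and 4 and in control replicate 2. Among the members alone it was -0.15, 0.39, 0.46 and -0.55 in propionic acid libraries, against 0.33, -0.35, -0.25 and 0.48 in control libraries. It was thus weak in propionic acid replicate 1, the library lowest in the members, and of opposite sign to that of all genes in control replicate 3. Of the 7 members highest in propionic acid replicate 4, some were short, as Ube2c (933 bases) and Cenpa (1718 bases). Others were longer than the member median of 3383 bases, as Cdk1 (4358 bases) and Birc5 (3423 bases). A length correction within each library was chosen after seeing the data and is given as a description. With it, propionic acid replicate 1 was -0.41 from the 8-mouse mean of the members, compared with -0.44 before, and the median log2 fold change was -0.15.

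Other genes of the same pathway were taken as 144 genes in 4 lists, with 0 past an adjusted p of 0.05. Of 62 tested genes of mitosis outside the set, 49 were lower by mean and 13 higher, with a median log2 fold change of -0.11. The smallest p among the lower ones belonged to Ckap2l, a spindle protein, at 4.0, 6.47, 6.39 and 5.74 FPKM in propionic acid skin, against 8.82, 6.18, 7.93 and 7.57 FPKM in control skin (log2 fold change -0.38, limma adjusted p = 0.770). Among the higher ones it belonged to Pttg1, securin, which keeps sister chromatids from separating until anaphase. Pttg1 averaged 13.9 ± 3.82 FPKM in propionic acid skin and 9.74 ± 2.30 FPKM in control skin (SD, n = 4 each), with a log2 fold change of 0.46 (limma adjusted p = 0.797). Unlike most mitosis genes, it was highest in propionic acid replicate 1, with 17.5 FPKM, and its correlation with the member mean was -0.73.

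Of 38 tested replication genes outside the set, 22 were lower by mean and 16 higher (median log2 fold change -0.06). Gmnn, geminin, which blocks a further round of MCM loading, averaged 6.17 ± 0.702 FPKM in propionic acid skin and 5.03 ± 0.645 FPKM in control skin (limma adjusted p = 0.815). Fen1, the nuclease that trims Okazaki fragments, averaged 6.78 ± 0.996 FPKM in propionic acid skin and 7.93 ± 0.848 FPKM in control skin (limma adjusted p = 0.848). Of 14 tested further genes of G1/S entry, 9 were lower by mean and 5 higher (median -0.06). Cdc25b, a phosphatase that activates CDKs, averaged 10.2 ± 1.63 FPKM in propionic acid skin and 11.8 ± 1.22 FPKM in control skin, with a limma adjusted p of 0.848. E2f2, a relative of E2f1, averaged 2.89 ± 0.460 FPKM in propionic acid skin and 2.48 ± 0.518 FPKM in control skin (limma adjusted p = 0.879). The groups overlapped for all of these genes.

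The list of CDK inhibitors, the RB family and the DREAM complex mixes genes that hold the cycle back with MuvB subunits, which serve repression and activation alike. Of its 18 tested genes, 8 were lower by mean and 10 higher (median log2 fold change 0.05). Wee1, the kinase that holds CDK1 inactive until mitosis and is also under control of the circadian clock, had 4.78, 4.41, 4.84 and 5.37 FPKM in propionic acid skin, against 5.74, 8.43, 10.5 and 15.3 FPKM in control skin. All propionic acid values were below all control values. The log2 fold change was -0.84 (SE 0.23), with an unadjusted p of 0.00532, but it did not pass over all genes (limma adjusted p = 0.488). Lin37, a subunit of MuvB, averaged 8.95 ± 0.290 FPKM with propionic acid and 7.83 ± 0.830 FPKM in control (limma adjusted p = 0.841), also without overlap. For the CDK inhibitors Cdkn1a, Cdkn1b and Cdkn1c the groups overlapped. Cdkn1a averaged 122 ± 14.5 FPKM with propionic acid and 114 ± 25.6 FPKM in control. Cdkn1b averaged 33.4 ± 5.30 FPKM with propionic acid and 28.0 ± 6.75 FPKM in control, and Cdkn1c 13.3 ± 4.18 FPKM with propionic acid and 15.8 ± 4.63 FPKM in control.

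Among all other tested genes, those most like the member mean over the 8 mice, after centring each group, were Thoc5, Spata5, Cdca5, Cox10, Kif18b, Spag5, Ncapd2 and Incenp, with Pearson correlations of 0.97 to 0.99. Of these 8, 4 (Cdca5, Kif18b, Ncapd2 and Incenp) are in the list of further mitosis genes, and Spag5 encodes another spindle protein. Thoc5 serves mRNA export, Spata5 ribosome assembly and Cox10 the making of haem A. The median correlation with the member mean was 0.80 over the further mitosis genes, 0.79 over the further replication genes, 0.62 over the further G1/S genes and -0.05 over the list of CDK inhibitors, RB family and DREAM complex. Over all genes outside the set it was 0.19.

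Markers of several cell types ran with or against the members from mouse to mouse. Suprabasal keratinocyte genes, made by cells that have left the dividing basal layer, averaged 8.40, 8.49, 7.47 and 7.38 on the log2 scale in propionic acid skin, against 6.57, 8.70, 6.80 and 8.12 in control skin. The mice highest in the members, control replicates 1 and 3, were lowest in these markers, and control replicate 2 was highest. Of the 8 genes, 7 were higher by mean with propionic acid and 1 lower, none past the threshold, and their summed level ran from 4031 to 7500 FPKM with propionic acid and from 2357 to 8619 FPKM in control. Basal keratinocyte genes spanned less, from 6.27 to 6.67 in propionic acid skin and 6.38 to 6.70 in control skin, with 6 of 8 lower by mean. Their sums were 4704 to 6104 FPKM with propionic acid and 4556 to 7407 FPKM in control. Within this list Krt5 alone had no overlap, a trait of 3.16% of all genes tested. It ran from 894 to 1045 FPKM with propionic acid and from 1056 to 1506 FPKM in control. Its log2 fold change was -0.31 (limma unadjusted p = 0.0574, adjusted p = 0.802), and that of Krt14 was 0.02. Macrophage and monocyte genes averaged 5.77 to 6.50 with propionic acid and 5.91 to 6.96 in control, where control replicate 1 was highest. All 5 had a lower mean with propionic acid, and their sums were 862 to 1364 FPKM with propionic acid and 1106 to 1590 FPKM in control. No defining marker of these 3 lists was at 0, and their part in the members' values was not tested.

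Skeletal muscle, which lies below the skin, was part of the RNA. Its 11 markers summed to 6402, 3374, 3630 and 6489 FPKM in propionic acid skin, against 4335, 5165, 3528 and 4090 FPKM in control skin, with 5 of 11 higher by mean and 6 lower. Of the 11, 3 higher genes (Myh4, Actn3 and Ckm) and 1 lower gene (Myh1) had an unadjusted p under 0.05 and no overlap between the groups. Their log2 fold changes were 3.26, 1.93, 0.99 and -1.75, with limma adjusted p of 0.0998, 0.0998, 0.488 and 0.392. Of all genes tested, 4.07% were higher and 2.21% lower with an unadjusted p under 0.05, and 3.16% had no overlap. The mean log2 value of the markers was 7.27, 6.54, 7.0 and 7.34 in propionic acid skin, against 6.78, 6.78, 6.73 and 6.59 in control skin, so that propionic acid replicates 1, 3 and 4 were above every control. With the mean of these markers as a covariate, the median log2 fold change of the members was -0.09, with 30 of 41 lower. Since the markers themselves differed between the groups, a fit with this covariate cannot tell muscle content and treatment apart. With the covariate, the log2 fold change of Cenpf went from -0.14 to -0.0014. Those of Cdc20 and Ube2c grew in size, from -0.14 to -0.23 and from -0.07 to -0.19. Of 11 genes of the growing hair follicle, whose matrix divides fast, 3 could be tested. By mean, 2 were higher and 1 lower. The higher ones were Tchh, the trichohyalin of the inner root sheath, and Hoxc13, with log2 fold changes of 0.92 and 0.67. The lower one was Foxn1, at -0.18. Tchh alone had an unadjusted p under 0.05, and none passed over all genes. Shh and Krt35 stayed below 0.1 FPKM in all 8 mice. Krt27 and Krt71 had 4.95 and 6.25 FPKM in propionic acid replicate 3. In every other mouse they had at most 0.255 and 0.126 FPKM. The 11 genes summed to 69.0 to 255 FPKM with propionic acid and 56.7 to 84.5 FPKM in control. Most of this was Tchh (63.6 to 247 FPKM with propionic acid and 51.0 to 77.9 FPKM in control). The part of the follicle in the members' values was not tested.

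**Figure D5:**
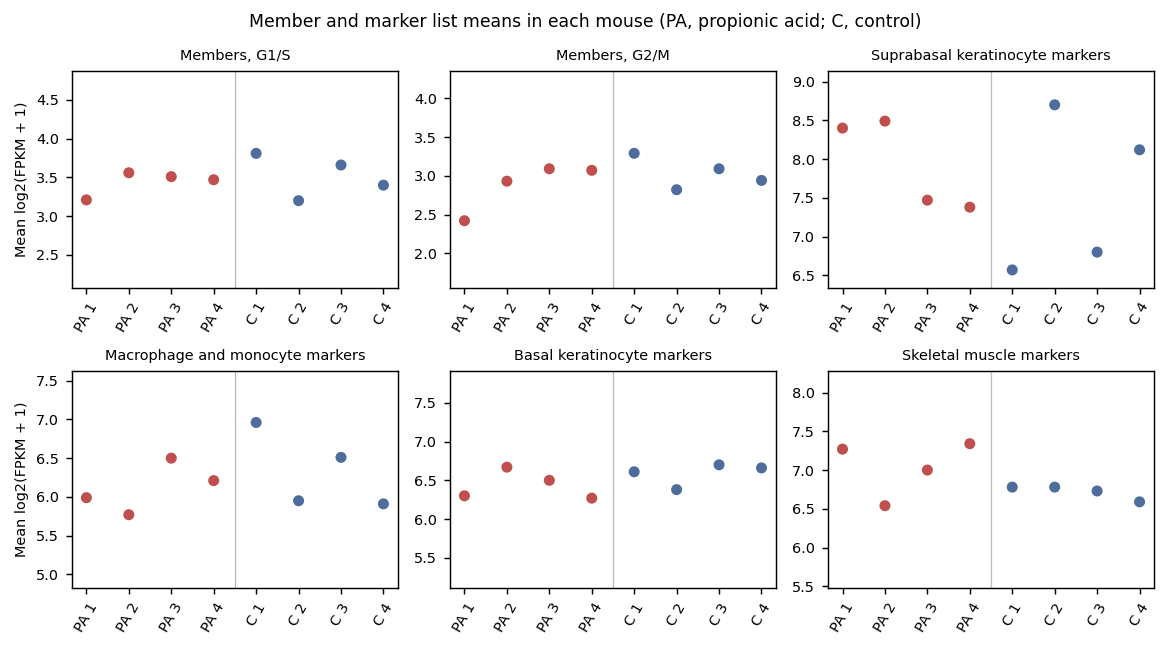
Mean log2(FPKM + 1) in each mouse (propionic acid left, control right) for the G1/S and G2/M members and 4 lists of cell type markers, with axes of equal span. Control replicates 1 and 3 are high in the members and low in suprabasal keratinocyte markers. Propionic acid replicate 1 and control replicate 2 are low in the members and, at 8.40 and 8.70, high in those markers. Propionic acid replicate 2 is also high in those markers, at 8.49, but lies above both of these mice in the members.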

How the data were processed

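RNA libraries were made with the VAHTS Universal V6 kit from TRIzol-extracted RNA of 8 mice, per the labels' protocols. The authors deposited FPKM values for 25378 genes, per the file headers, and CASAVA, cutadapt, HISAT2 2.1.0 and mm10 are named per the submitters' processing notes. Which program counted reads, with which strand setting and annotation, is not given in the sources used here. FPKM values, divided by 1 factor per library, were fitted as multiples of a unit per gene, and whole numbers of reads that fit were found for all 25378 genes (tolerance 0.01 of a read). A gene with reads in 1 library fits by construction, and the number found need not be the true count. Krt10, for example, got an implied length of 10578 bases, though its locus runs from 99385254 to 99389364. Read totals, gene lengths and the voom fit rest on these recovered counts.

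Values were taken as log2(FPKM + 1), which understates changes of low genes. Genes with 1 FPKM or more in at least 4 libraries were fitted with limma 3.58.1 in R 4.3.3 (trend, robust, group as the only term, 2-sided, Benjamini-Hochberg over 12598 genes, threshold 0.05). The step was tested on simulated data. Voom on recovered reads was an alternative, and so were other pseudocounts, filters, scalings, covariates and libraries.

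The members, the 4 pathway lists, the 11 cell type lists and the tests were chosen with earlier results of these data known. Full values are given for 6 members whatever their level, for members with an unadjusted p under 0.05 or no overlap, and for the most abundant and the smallest-p member of each role, 19 in all. From each pathway list the smallest p in each direction is named, as are 3 CDK inhibitors and the 8 genes most like the member mean. Others were chosen after their values were seen. Positions are from GENCODE M21 and promoters from RefSeq (GRCm38.p6, the mm10 assembly). Members overlapping another gene (12) and with annotated copies elsewhere (Ccnb1, Ccnb2, Pcna, Tyms) are uncertain to that extent. P-values set the difference between the groups against the spread between these mice, moderated by limma over all tested genes.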

Additional observations from a re-analysis of the deposited data

Results flagged for a closer look

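Among 82 sets of 4 values (41 members in 2 groups), 2 had a mouse far from the rest, where chance alone gives about 1 set in 20. Mcm3 had 8.71 FPKM in propionic acid replicate 1, below 11.0 to 11.3 FPKM in the other mice of that group. Pcna had 73.5 FPKM in control replicate 2, below 82.5 to 84.1 FPKM in the other controls.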

How the results depend on the processing

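In none of 17 alternative settings did a member pass the threshold, and the smallest adjusted p of a named member was 0.504, without control replicate 2. Over all genes, 0 passed, and 0 to 2 with each mouse left out in turn (Ucp3 without control replicate 2, Nr1d2 and Cbln1 without control replicate 3). Of 792 genes with an unadjusted p under 0.05, 513 were higher with propionic acid and 279 lower, against 418 and 370 with median-of-ratios scaling. The number of such genes was 1351 with no filter on low values, 505 without control replicates 1 and 3, and 442 to 1238 with each mouse left out. Of the members, 36 were lower with median-of-ratios scaling and 34 with quantile normalization. The median log2 fold change of the members was -0.23 to -0.01 with each mouse left out and -0.16 on recovered reads with voom. Their median pairwise correlation was 0.40 without the lowest and the highest mouse.

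Some named members turned direction, none with a call. With each single mouse left out, others kept it while their size moved, as Top2a (-0.41 to -0.05), Ccnb1 (-0.38 to -0.04), Mcm3 (-0.33 to -0.07), Rrm1 (-0.29 to -0.05), Rrm2 (-0.35 to -0.14), Bub1 (-0.26 to -0.05), Cenpf (-0.24 to -0.01) and Kif23 (-0.31 to -0.15). Without control replicates 1 and 3 together, log2 fold changes turned positive, at 0.05 for Top2a, 0.03 for E2f1, 0.09 for Mcm3, 0.12 for Rrm1, 0.05 for Rrm2, 0.12 for Plk1, 0.10 for Cdc20 and 0.11 for Ube2c. That of Pcna was -0.0036 with median-of-ratios scaling, -0.02 with quantile normalization, -0.04 with the muscle covariate and -0.06 with the length correction. With each mouse left out, the range was -0.06 to 0.20 for Ccnd1, -0.04 to 0.05 for Pcna, -0.22 to 0.06 for Plk1, -0.05 to 0.15 for Prc1, -0.27 to 0.08 for Cenpa, -0.29 to 0.02 for Cdc20 and -0.25 to 0.05 for Ube2c. The cause was not tested.

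The labels do not say whether same-numbered mice of the groups share more than a number. The correlations of their deviations from the group means were -0.32, -0.08, 0.20 and -0.12. Of the 4 propionic acid mice, 0 were closest to their own number. With the replicate number as a block, 0 genes and 0 members passed, 700 genes had an unadjusted p under 0.05, none of them a member, and the median log2 fold change of the members was -0.14. Recovered read totals were near equal, and at the recovered depth of the members counting error was small beside the spread between mice.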

Other observations

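The other cell type lists held these values, on the mean log2(FPKM + 1) scale. Endothelial genes, of the vessel wall, averaged 3.95, 3.81, 4.53 and 4.13 in propionic acid skin, against 4.64, 3.68, 4.20 and 4.29 in control skin. Of the 5 genes, 3 had a lower mean and 2 a higher one. Leukocyte genes averaged 5.24, 4.96, 5.57 and 5.55 in propionic acid skin, against 5.90, 5.14, 5.49 and 4.96 in control skin, with 1 of 3 lower. T cell genes averaged 3.26, 2.89, 3.42 and 3.44 in propionic acid skin, against 3.56, 3.19, 3.79 and 2.71 in control skin, with 3 of 5 lower. Fibroblast genes averaged 7.42, 7.60, 8.36 and 7.87 in propionic acid skin, against 8.62, 8.28, 7.77 and 7.34 in control skin, with 4 of 6 lower.

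Adipocyte genes averaged 6.86, 6.13, 7.35 and 6.57 in propionic acid skin, against 6.81, 5.66, 5.87 and 5.55 in control skin. Of the 7 genes, 6 had a higher mean, 4 of them with an unadjusted p under 0.05, where 4.07% of all genes tested were higher with such a p, and none passed over all genes. Melanocyte genes, with 2 of 4 tested and both higher by mean, averaged 1.51, 1.79, 2.1 and 2.14 in propionic acid skin, against 1.85, 1.96, 1.77 and 1.20 in control skin. The limma adjusted p was above 0.05 for each gene of these lists that was tested. Cd8a of the T cell list and Tyr and Pmel of the melanocyte list did not pass the filter on low values.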
